A study of Mus musculus with 2 samples.

Results

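The genes described here are 10 transcription factors of granulopoiesis, the making of neutrophils and related cells in bone marrow. They are 4 members of the C/EBP family (Cebpa, Cebpb, Cebpd and Cebpe), the ETS factor Spi1 (PU.1), the runt factor Runx1, the repressor Gfi1, the interferon regulatory factor Irf8 and the Krüppel-like factors Klf2 and Klf6. They were taken by symbol, and all 10 were found among the 32285 genes of both count tables. The data are single-cell RNA-seq of blood cells from old mice (24 months) and young mice (2 months), both labelled male, with 1 library per age. Both libraries hold live cells sorted for CD45, CD11b and Ly6G after red cell lysis and captured on the BD Rhapsody microwell platform. The labels name no strain and do not say how many mice each library holds. The stated purpose of the series is to describe senescent neutrophils in aging. With 1 library per age there is no replicate, so no difference between ages has a test, and intervals in the text are exact 95% intervals that cover counting error only.

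Neutrophils arise from granulocyte-monocyte progenitors. Cebpa and Spi1 act early in that path, Irf8 favours the monocyte and dendritic cell branch, and Gfi1 represses monocyte genes in cells that become neutrophils. Cebpe is the factor of the late bone marrow stages, and mice or people without it lack specific granules, whose contents include lactoferrin (Ltf), cathelicidin (Camp) and neutrophilic granule protein (Ngp). Transcripts of these granule proteins are made in the marrow and are scarce in mature blood neutrophils, while Cebpb is known for emergency granulopoiesis and for mature myeloid cells.

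The old table held 14334 cell barcodes and 128826996 UMIs, with a median of 7266 UMIs per barcode, and the young one had 13599 barcodes and 69599479 UMIs, with a median of 4246. After filtering, 13517 old and 12921 young cells were left, of which 8561 old (63.3%) and 9891 young (76.6%) were neutrophil-like by markers. The old neutrophil-like cells lay mostly in clusters 1 (4612 cells) and 3 (2085 cells), the young ones mostly in clusters 0 (4527) and 2 (3871). Monocytes, lymphocytes, platelets and erythroid cells were present in spite of the sort. The libraries shared 53 barcodes, 0.370% of the old and 0.390% of the young ones. Xist, which is transcribed from the inactive X chromosome of female cells, had 27061 UMIs in the old library and 11165 in the young one. This goes against the male label. Of the Y-linked genes counted, Ddx3y had 967 UMIs in the old and 1329 in the young library. The others had few or none: Uty 3 and 14, Kdm5d 5 and 0, and Eif2s3y 0 in both. Neutrophil transcripts were found in other classes too. The 10 neutrophil markers summed to 80520 CPM (UMIs scaled to the class total) in old and 26350 CPM in young erythroid cell-like cells, against 326600 CPM in old and 126100 CPM in young neutrophil-like cells, and how much of this is free RNA or mixed cells was not tested.

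Neutrophil-like cells were divided into 5 bands by the share of a cell's UMIs that came from Ltf, Camp and Ngp together. From under 0.05%, through 0.05 to 0.2%, 0.2 to 1% and 1 to 5%, to 5% or more, the bands held 1924, 3920, 1159, 1005 and 553 old cells, and 9624, 133, 67, 38 and 29 young cells. Cells with 1% or more are called high-granule cells (1558 old, 67 young), and those under 0.2% low-granule cells (5844 old, 9757 young). The median old B cell-like cell, a cell type that does not make these proteins, had a share of 0.0439%, and old B cell-like cells as a sum 0.190%, so the bands under 0.2% of the old library lie below the summed level of that class, while the band of 0.05 to 0.2% lies above its median cell. In the young library the B cell-like sum was 0.00357%. Depth rose with the bands: the median was 15070 UMIs in old and 10924 in young high-granule cells, against 6168 in old and 4062 in young low-granule cells.

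Cebpe followed the granule transcripts in both libraries. It stood at 10.3, 11.9, 21.1, 66.4 and 235 CPM along the 5 old bands, and at 15.6, 23.4, 40.7, 109 and 220 CPM along the young ones. Each band was higher than the one before it in both libraries, and the intervals of the top band were 226 to 245 CPM in old and 174 to 274 CPM in young cells. High-granule cells as a whole had 135 (130 to 140) CPM, against 11.4 (10.4 to 12.5) CPM in low-granule cells of the old library, 11.8-fold (10.7 to 13.1). In the young library the levels were 161 (134 to 192) and 15.7 (14.6 to 16.9) CPM, 10.3-fold (8.39 to 12.4). Counted per cell, the top band held 4.30 Cebpe UMIs and the lowest band 0.0598 in the old library, and 2.72 and 0.0686 in the young one. B cell-like cells stood at 8.20 CPM (old) and 2.58 CPM (young), so the low bands of the old library were near the level of a cell type that should lack the gene.

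**Figure D1:**
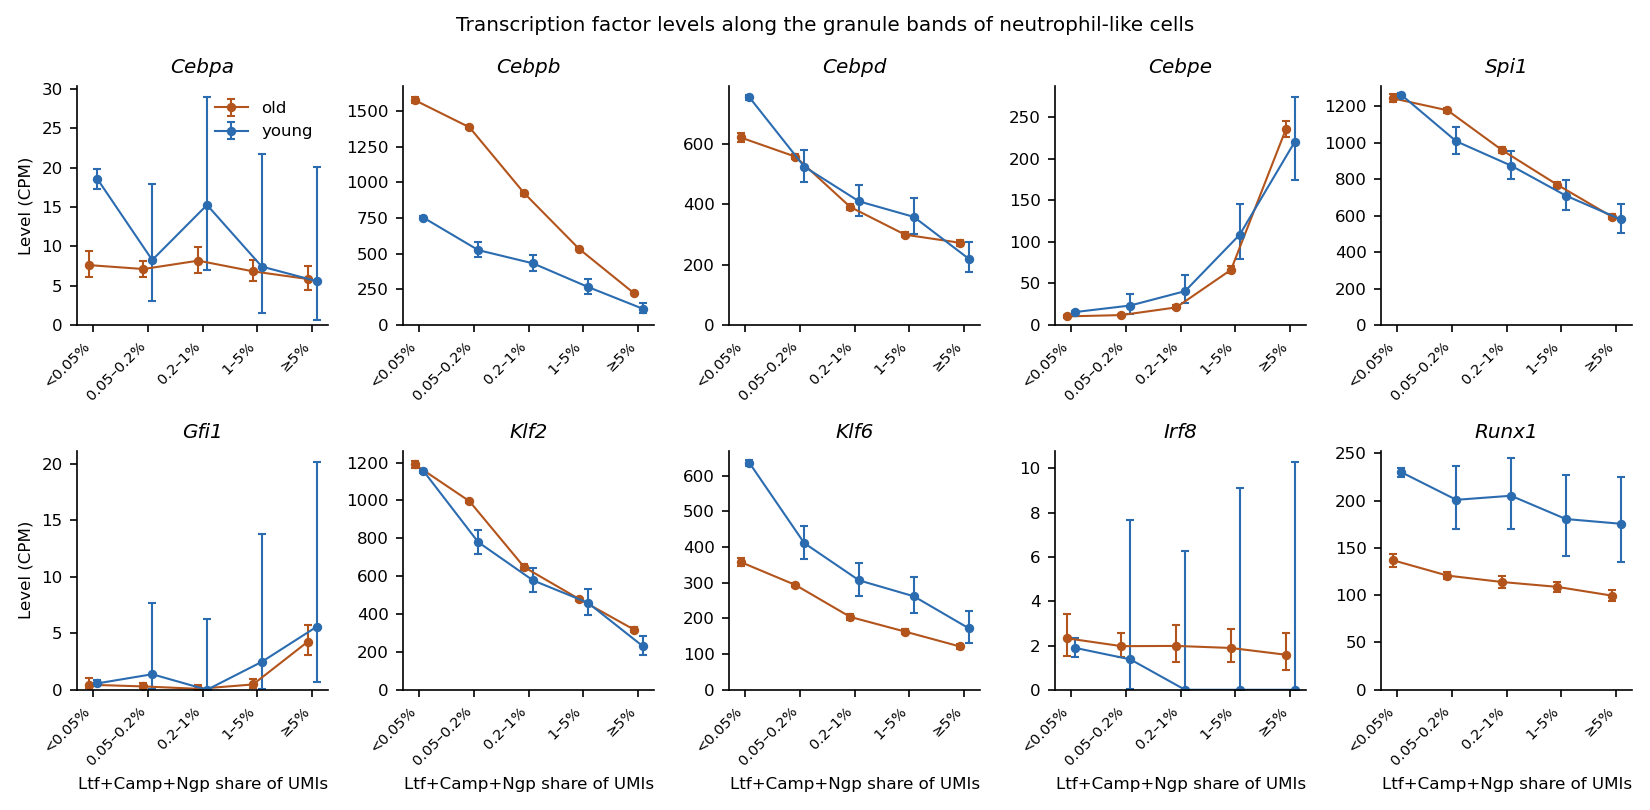
Level of each of the 10 genes (y axis, CPM, linear from 0) in neutrophil-like cells along 5 bands of the Ltf, Camp and Ngp share of UMIs (x axis, low to high). Points are sums over the cells of 1 library, old in brown and young in blue, with exact 95% Poisson intervals of counting error. Cebpe reached 235 CPM in old and 220 CPM in young cells of the top band, and Cebpb was higher in the old library in each of the 5 bands.

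Cells with a Cebpe UMI were also counted one by one. After each cell was thinned to 1000 UMIs, 2.68% (2.35 to 3.04) of 8514 old and 1.52% (1.28 to 1.78) of 9833 young neutrophil-like cells had a Cebpe UMI, and before thinning 16.9% of old and 6.62% of young cells did. In B cell-like cells, with a median of 8668 UMIs in the old and 6390 in the young library, the thinned share was 0.410% of 244 old and 0.480% of 417 young cells. Among thinned high-granule cells the share was 9.32% (7.92 to 10.9) in the old library and 11.9% (5.30 to 22.2) in the young one. The 228 old cells with a Cebpe UMI had a mean granule share of 3.83%, against 0.790% in the 8286 cells without one. For the 149 young cells with a Cebpe UMI it was 0.336%, against 0.0360% in the other 9684, but the median share was 0 in both and 5.37% of the 149 cells were high-granule cells, against 0.682% of the others. In the old library 62.7% of cells with a Cebpe UMI were high-granule cells, against 17.2% of those without.

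Most Cebpe UMIs of the old library came from few cells. High-granule cells gave 3364 of 4054 Cebpe UMIs of old neutrophil-like cells (83.0%) and 123 of 824 of young ones (14.9%), while they gave 33.2% of all old and 1.72% of all young UMIs. Over all neutrophil-like cells Cebpe stood at 54.0 (52.3 to 55.7) CPM in the old and 18.5 (17.3 to 19.9) CPM in the young library, 2.91-fold (2.70 to 3.14). With the old band levels weighted by the UMIs of the young bands, the old value became 12.8 CPM, below the young 18.5 CPM. With the young band levels weighted by the old bands, the young value became 68.3 CPM, above the old 54.0 CPM. Band by band, Cebpe was lower in plain CPM in the old library in the 4 bands under 5%, and the intervals of old and young overlapped in the top band.

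**Figure D2:**
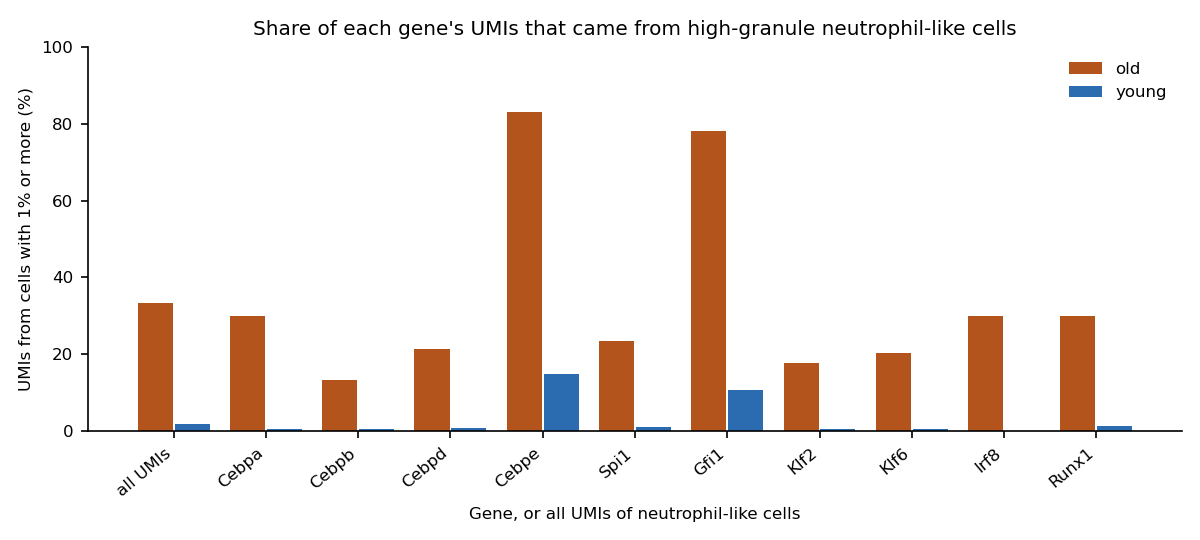
Share of each gene's UMIs in neutrophil-like cells that came from cells with 1% or more of their UMIs from Ltf, Camp and Ngp (y axis, percent, from 0), for all UMIs and the 10 genes (x axis), old beside young. High-granule cells gave 83.0% of Cebpe UMIs in the old and 14.9% in the young library, against 33.2% and 1.72% of all UMIs.

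Promoter sequences are shown for the 3 genes that define the bands and for Gfi1, the only one of the 10 factors with a C/EBP core in the bases searched. They are the 160 bases before the transcription start, 5′ to 3′ on the gene's strand, from RefSeq promoter windows of GRCm38.p6, and capitals mark TTGCNNAA or its reverse complement.
Ltf, chr9:111019132-111019291, plus strand: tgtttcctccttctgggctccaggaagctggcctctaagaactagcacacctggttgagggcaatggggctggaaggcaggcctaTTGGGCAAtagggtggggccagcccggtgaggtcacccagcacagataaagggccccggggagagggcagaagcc
Camp, chr9:109849457-109849616, minus strand: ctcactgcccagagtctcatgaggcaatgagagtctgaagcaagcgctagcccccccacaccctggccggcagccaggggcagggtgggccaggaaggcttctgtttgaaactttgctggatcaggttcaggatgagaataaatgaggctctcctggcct
Ngp, chr9:110419648-110419807, plus strand: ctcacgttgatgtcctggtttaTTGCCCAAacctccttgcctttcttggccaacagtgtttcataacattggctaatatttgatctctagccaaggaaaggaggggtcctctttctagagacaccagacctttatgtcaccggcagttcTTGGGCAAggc
Gfi1, chr5:107725806-107725965, minus strand: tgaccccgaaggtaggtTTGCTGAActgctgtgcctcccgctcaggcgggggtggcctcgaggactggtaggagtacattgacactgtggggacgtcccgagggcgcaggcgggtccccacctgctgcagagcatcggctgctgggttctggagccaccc
The core was searched on both strands of the 250 bases before the start. Ltf held it 75 bases before the start, Ngp 138 and 11 bases before it, and Gfi1 143 bases before it, in 1 of its 2 windows. Camp had no match in its window. Of 32851 windows, 9.56% held the core. Of the 12 specific granule genes outside the bands, 8 had windows and 2 held the core, Lcn2 and Mmp8. Windows existed for 7 of the 10 factors, and Cebpd, Cebpe and Spi1 had none. Of those 7, 0 held GAGGAAGT (a PU.1 type motif, in 2.44% of windows) or TGTGGT (a RUNX core, in 14%). Cebpa and Runx1 held GGGTGNGG (a KLF type motif, in 14.9% of windows), and Gfi1, Irf8, Klf6 and Runx1 held AATC (a GFI1 core, in 69%). None of the matches in Ltf, Ngp and Gfi1 overlapped a match to another of the 5 motifs. A match describes letters and shows no binding.

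Cebpb, which pairs with other C/EBP proteins and drives inflammatory myeloid genes, ran the other way. It stood at 1578, 1387, 924, 534 and 224 CPM along the old bands and at 753, 525, 432, 267 and 114 CPM along the young ones. Every band was lower than the one before it, and the old library was above the young one in all 5 bands with intervals that did not overlap. In high-granule cells the level was 408 (400 to 416) CPM, against 1443 (1431 to 1455) CPM in low-granule cells of the old library, 3.53-fold (3.46 to 3.61) lower. In the young library the levels were 195 (165 to 229) and 749 (741 to 757) CPM, 3.84-fold (3.27 to 4.54) lower. Counted per cell Cebpb was lower too, at 4.09 UMIs in the top and 9.16 in the lowest old band, and at 1.41 and 3.31 UMIs in the young library.

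Cebpd, a C/EBP gene induced by inflammation and by granulocyte colony-stimulating factor, was at 622, 558, 392, 300 and 273 CPM along the old bands. Along the young bands it was at 755, 525, 410, 359 and 220 CPM. Both libraries fell step by step in CPM, but UMIs per cell did not fall in the old library, with 4.98 in the top and 3.61 in the lowest band. In the young library they were 2.72 in the top band and 3.32 in the lowest. Cebpa, the early factor of the granulocyte path, was low: 7.61, 7.11, 8.17, 6.81 and 5.84 CPM along the old bands, whose intervals overlapped, and 18.5 CPM in the lowest young band, with 2 to 9 UMIs in each of the other 4 young bands. Over all neutrophil-like cells Cebpa stood at 7.12 (6.53 to 7.75) CPM in the old library and 18.1 (16.9 to 19.4) CPM in the young one. After thinning, 0.799% of old and 1.77% of young cells had a Cebpa UMI, against 0 of 244 old B cell-like cells, which allows a share of up to 1.23%, and 0.240% of 417 young ones. The old share is within that limit.

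Spi1, which encodes PU.1, the ETS factor needed for myeloid cells, stood at 1244, 1178, 959, 770 and 594 CPM along the old bands and at 1262, 1008, 874, 710 and 579 CPM along the young ones. The libraries lay close together in every band. Per cell it went the other way, with 10.9 UMIs in the top and 7.23 in the lowest old band, and 7.17 and 5.55 UMIs in the young library. Runx1, the core-binding factor of blood stem cells and progenitors, changed little in CPM along the bands, with the top band at 0.727 (old) and 0.763 (young) of the lowest one. It was at 137, 121, 114, 109 and 99.5 CPM in the old bands and at 230, 201, 205, 180 and 176 CPM in the young ones. In CPM the old library was below the young one in all 5 bands, and the intervals did not overlap. Counted per cell, Runx1 was higher in high-granule cells, with 1.68 UMIs against 0.817 in low-granule cells of the old library. In the young library it had 2.03 and 1.01 UMIs. Over all neutrophil-like cells Runx1 had 1.025 UMIs per cell in the old and 1.025 in the young library.

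Gfi1 and Irf8, which repress and favour the monocyte branch, were close to nothing in neutrophil-like cells. Gfi1 had 64 UMIs in 8561 old and 28 UMIs in 9891 young neutrophil-like cells. In the top band it had 43 UMIs (4.25 CPM, 3.08 to 5.73) in the old library and 2 UMIs (5.57 CPM, 0.675 to 20.1) in the young one. High-granule cells gave 50 of the 64 old UMIs (78.1%) and 3 of the 28 young UMIs (10.7%). T cell-like cells held Gfi1 at 6.80 CPM (old) and 5.30 CPM (young), above neutrophil-like cells as a whole. Irf8 stood at 1.96 (1.65 to 2.30) CPM in old and 1.82 (1.45 to 2.27) CPM in young neutrophil-like cells. Erythroid cell-like cells, a class that should lack it, had 1.95 (0.936 to 3.59) and 0.849 (0.103 to 3.07) CPM. The intervals overlapped in both libraries, so Irf8 was not detectable above that class in either. Irf8 had 0 UMIs in the 67 young high-granule cells, which with 3 UMIs as the limit allows up to 3.93 CPM.

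Klf2, known for keeping lymphocytes and myeloid cells quiescent, and Klf6, a factor of inflammatory gene expression in myeloid cells, were both lower in CPM towards the top band. Klf2 was at 1191, 996, 648, 480 and 318 CPM along the old bands and at 1156, 780, 578, 460 and 231 CPM along the young ones. Klf6 was at 358, 294, 204, 163 and 122 CPM along the old bands and at 636, 411, 307, 262 and 173 CPM along the young ones. Klf6 was lower in the old library in each band, while Klf2 was at or above the young level in each. Per old cell neither gene fell much: Klf2 had 5.82 UMIs in the top and 6.92 in the lowest band, and Klf6 2.22 and 2.08. In the young library Klf2 had 2.86 and 5.09 UMIs per cell, and Klf6 2.14 and 2.80.

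Ratios were then set against the median gene, which stood at -0.47 log2 (old) and -0.60 log2 (young) in high over low-granule cells. S100a8 and S100a9 gave 37.0% of UMIs in high- and 24.1% in low-granule cells of the old library, and 31.2% and 10.2% in the young one. An alternative total left out S100a8, S100a9, Ltf, Camp, Ngp, mitochondrial and ribosomal protein genes. With it the median gene stood at -0.035 log2 (old) and -0.058 log2 (young). The part of S100a8 and S100a9 alone was not tested. A gene was called from 1.5-fold relative to the median gene, among genes whose mean over both sides reached 10 CPM. In the old library 7 of the 10 factors were compared: Cebpe was higher, where 24.5% of all 5276 genes were, and Cebpb, Klf2 and Klf6 were lower, where 15.5% of all genes were. The other 3 compared were within 1.5-fold (Cebpd, Spi1 and Runx1), and Cebpa, Gfi1 and Irf8 were too low to compare. In the young library 8 were compared: Cebpe was higher, where 29.4% of all 5878 genes were, and Cebpa, Cebpb, Cebpd, Klf2 and Klf6 were lower, where 23.7% of all genes were. Cebpa rests there on 5 UMIs in high-granule cells. The relative log2 ratio of Cebpe was 3.92 in the old and 3.88 in the young library, and that of Cebpb -1.35 and -1.34. The median over the compared factors was -0.53 (old) and -0.76 (young), against 0.11 over all genes compared in each library. Runx1, lower in plain CPM, stood above the median gene, at 0.21 log2 in old and 0.24 log2 in young cells. On the scale of UMIs per cell, which has no shift to the median gene, 0 of the factors were called lower in either library. Cebpb stood at -0.52 log2 (old) and -0.57 log2 (young) there, just short of 1.5-fold. High-granule cells hold more UMIs each, with medians of 15070 (old) and 10924 (young), against 6168 and 4062 in low-granule cells. The share of all genes called on this scale is not given here.

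For old over young, the question of the series, the median gene of neutrophil-like cells stood at -0.68 log2. S100a8 and S100a9 gave 29.6% of UMIs in old and 10.8% in young neutrophil-like cells, and mitochondrial genes 0.776% and 0.219%. With the alternative total that left out these genes, ribosomal protein genes, Ltf, Camp and Ngp, the median gene stood at -0.28 log2. The part of S100a8 and S100a9 or of mitochondrial genes alone was not tested. Relative to the median gene at -0.68 log2, 2 of 8 factors compared were higher, Cebpe and Cebpb, where 22.5% of all 5745 genes were higher. Of the factors 1 was lower, Klf6, where 12.7% of all genes were. Their median was 0.06 log2, as it was over all genes. Cebpb stood at 1016 (1009 to 1023) CPM in the old and 736 (728 to 744) CPM in the young library, a plain ratio of 1.38 and a relative log2 ratio of 1.15. Klf6 stood at 240 (236 to 243) CPM in old and 621 (613 to 628) CPM in young cells, 2.59-fold (2.54 to 2.64) lower, with a relative log2 ratio of -0.69. Without the shift to the median gene, Cebpe was the only factor called higher, where 6.96% of all genes were. Cebpa, Cebpd, Klf6 and Runx1 were called lower, where 52.1% of all genes were. Spi1 and Klf2 have ratios of opposite sign on these scales: Spi1 at -0.32 log2 plain and 0.36 relative, Klf2 at -0.54 plain and 0.14 relative. Gfi1 and Irf8 were too low to compare.

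Within the bands, where cells of like measured granule share are compared, the Cebpb difference was larger than over all cells. In plain CPM Cebpe was lower in the old library in the 4 bands under 5%, while its intervals of old and young overlapped in the top band. The same band need not hold like cells in both libraries. B cell-like cells summed to 0.190% in the old and 0.00357% in the young library, and the median neutrophil-like share was 0.0966% and 0. The part of this in the band ratios was not tested. In the band under 0.05%, Cebpb was 2.10-fold (2.06 to 2.13) higher in the old library, in the band of 0.05 to 0.2% it was 2.64-fold (2.39 to 2.93), in that of 0.2 to 1% 2.14-fold (1.89 to 2.43), and in high-granule cells 2.09-fold (1.78 to 2.48). The plain Cebpe ratios were 0.660 (0.537 to 0.806), 0.508 (0.312 to 0.882), 0.519 (0.341 to 0.826) and, in high-granule cells, 0.837 (0.699 to 1.01). Runx1 had plain ratios of 0.596, 0.601, 0.555 and 0.590 in the same 4 groups, and Klf6 of 0.563, 0.714, 0.666 and 0.664. Relative to the median gene, which stood between -0.44 and -0.27 log2 in them, Runx1 and Klf6 were both within 1.5-fold. On that scale Cebpe stood at -0.11 log2 under 0.05%, -0.66 at 0.05 to 0.2% and -0.57 at 0.2 to 1%. It was called lower only at 0.05 to 0.2%, on 17 young UMIs.

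In the band under 0.05% 2 of 8 factors compared were called, Cebpb higher and Cebpa lower, where 20% of all genes were called in either direction. In the band of 0.05 to 0.2% 3 of 7 were called, Cebpb and Klf2 higher and Cebpe lower, where 26.0% of all genes were. In the band of 0.2 to 1% Cebpb was the 1 of 8 called, where 32.1% of all genes were. In high-granule cells Cebpb was the 1 of 7 called, where 26.0% of all genes were, and in low-granule cells Cebpb (higher) and Cebpa (lower) were the 2 of 8 called, where 23.4% of all genes were. The young groups above 0.05% are small, with 133, 67 and 67 cells.

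**Figure D3:**
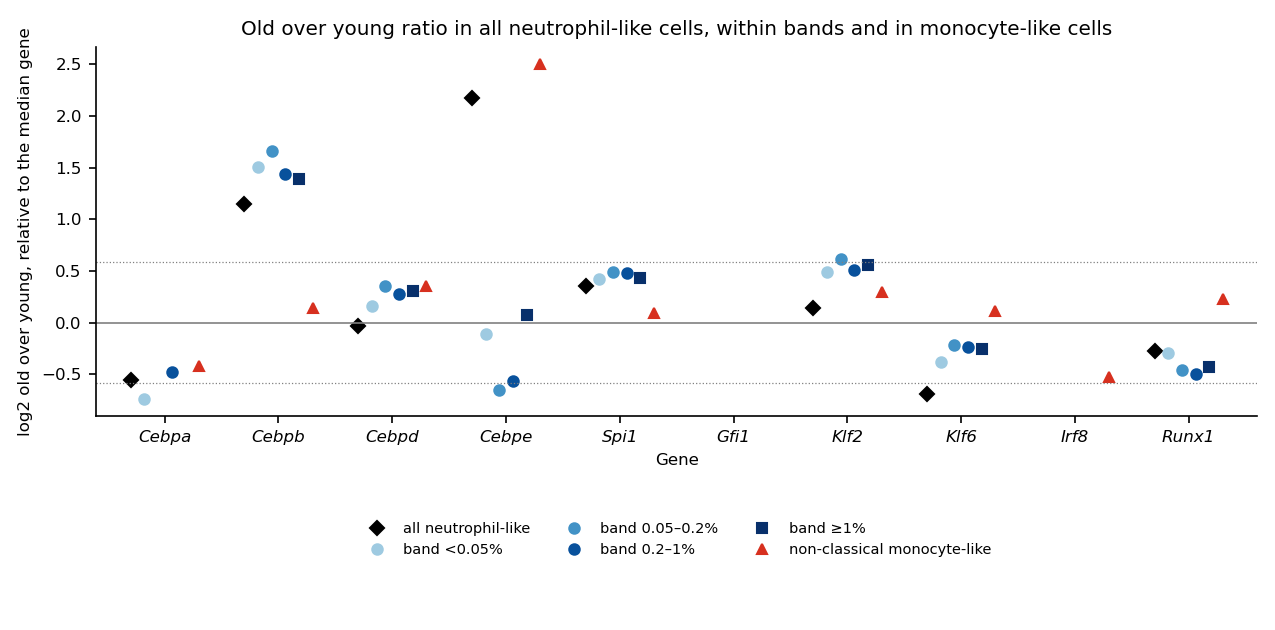
Old over young log2 ratio of CPM relative to the median gene (y axis) for each gene (x axis) in all neutrophil-like cells, in 3 bands, in high-granule cells and in non-classical monocyte-like cells. Dotted lines mark 1.5-fold, and genes too low to compare have no point. Cebpe stood at 2.17 over all neutrophil-like cells and between -0.66 and 0.07 within the bands, while Cebpb stood between 1.39 and 1.67 within them.

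The clusters give a second way of grouping the cells, and the 10 factors were left out when they were made. Cebpb was higher in the old library in all 6 neutrophil-like clusters: 1916 CPM in old and 712 CPM in young cells of cluster 0, 1291 and 618 CPM in cluster 1, 1997 and 806 CPM in cluster 2, 484 and 242 CPM in cluster 3, 1803 and 709 CPM in cluster 6, which is led by interferon-stimulated genes, and 1053 and 715 CPM in cluster 14. Cebpe intervals of old and young overlapped in all 6, with 15.5 CPM in old and 14.2 CPM in young cells of cluster 0, 11.2 and 12.3 CPM in cluster 1, 21.5 and 17.8 CPM in cluster 2, 18.0 and 16.7 CPM in cluster 6 and 10.6 and 14.1 CPM in cluster 14. It was high in cluster 3, where Ltf, Camp and Ngp gave 3.67% of old and 3.88% of young UMIs, with 113 CPM in old and 129 CPM in young cells. Klf2 was higher in the old library in clusters 0, 2 and 6 (1660 and 1083, 2096 and 1227, 1611 and 1162 CPM), although its CPM over all neutrophil-like cells was lower. In clusters 1, 3 and 14 it stood at 874 and 780, 440 and 394, and 890.5 and 1047 CPM. Klf6 was lower in old cells of clusters 1, 3 and 14 (250.4 and 363, 154 and 231, 266 and 553 CPM) and stood at 505 and 545, 799 and 743, and 542 and 621 CPM in clusters 0, 2 and 6. Runx1 was lower in old cells of cluster 3 (108 and 191 CPM) and of cluster 0 (167 and 185 CPM), and higher in cluster 2 (347 and 284 CPM). Its intervals overlapped in cluster 1 (107 and 132 CPM), cluster 6 (198 and 232 CPM) and cluster 14 (157 and 176 CPM).

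**Figure D4:**
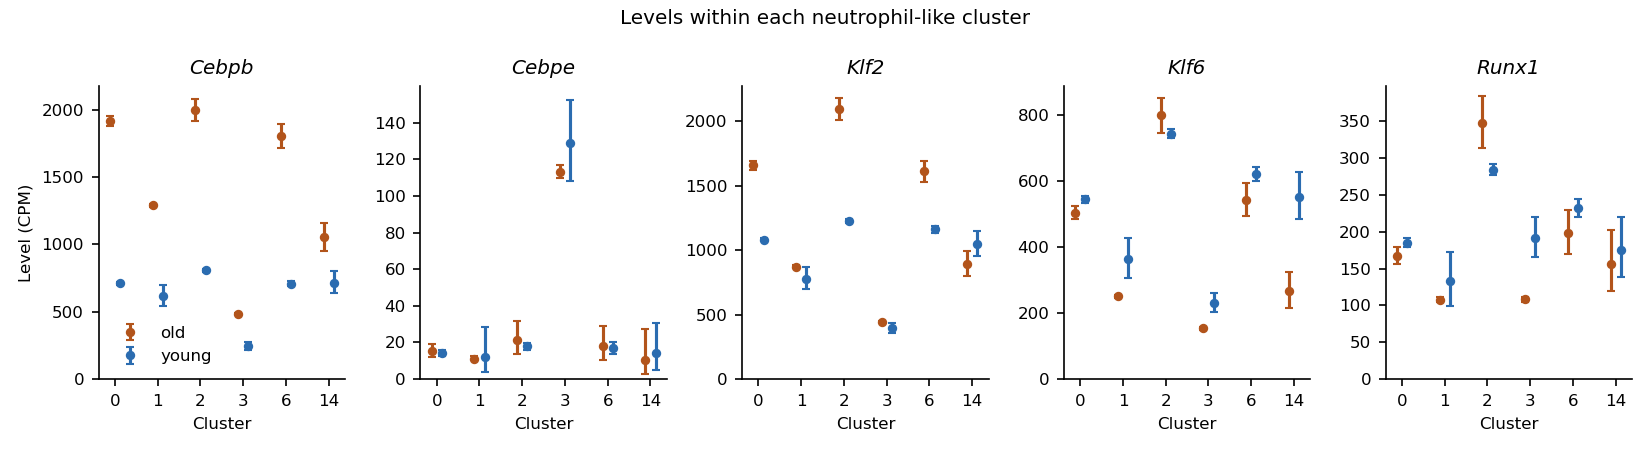
Level (y axis, CPM, linear from 0) of Cebpb, Cebpe, Klf2, Klf6 and Runx1 in each neutrophil-like cluster (x axis), old beside young, with exact 95% Poisson intervals of counting error. Cebpb was higher in old cells in all 6 clusters, and Cebpe was high in cluster 3 of both libraries.

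Monocytes share the early path with neutrophils and were compared with neutrophil-like cells of the same library. The old library held 960 classical monocyte-like cells and the young one 40, too few to compare, and there were 510 old and 461 young non-classical monocyte-like cells. A class named only monocyte-like, from general monocyte markers, held 223 old and 126 young cells and was not compared. Its classical monocyte markers summed to 7348 CPM (old) and 5933 CPM (young), against 9233 and 4629 CPM in classical monocyte-like cells. Cebpa, Irf8 and Runx1 were higher in all 3 comparisons. Cebpa stood at 77.3 (73.5 to 81.3) CPM in old classical monocyte-like cells, against 7.12 CPM in old neutrophil-like cells, 10.9-fold (9.83 to 12.0). In non-classical cells it stood at 25.1 (21.1 to 29.5) CPM in the old and 38.3 (33.1 to 44.2) CPM in the young library. Irf8 stood at 121 CPM in old classical monocyte-like cells, 61.6-fold (52.1 to 73.3) above old neutrophil-like cells, and at 77.5 CPM in old and 127 CPM in young non-classical cells. Runx1 stood at 327 CPM in old classical monocyte-like cells and at 401 CPM in old and 386 CPM in young non-classical ones.

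Cebpd and Cebpe were lower in all 3 comparisons. Cebpd stood at 199 CPM in old classical cells, and at 179 CPM in old and 158 CPM in young non-classical cells, against 451 CPM in old and 739 CPM in young neutrophil-like cells. Cebpb was level with neutrophil-like cells in old classical cells, at 1019 and 1016 CPM, and stood at 1647 (1614 to 1681) CPM in old and 1680 (1645 to 1717) CPM in young non-classical cells. Relative to the median gene this was within 1.5-fold of neutrophil-like cells in the old library (0.13 log2) and higher in the young one (1.05 log2). Klf2 stood at 712 CPM in old classical cells, and at 1146 CPM in old and 1049 CPM in young non-classical cells, against 776 CPM in old and 1128 CPM in young neutrophil-like cells, within 1.5-fold relative to the median gene in all 3 comparisons. Gfi1 had 1 UMI in old classical cells, 2 UMIs in old non-classical cells and 0 in young non-classical cells.

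The median gene stood at 0.40 log2 in classical over neutrophil-like cells of the old library, and at 0.56 (old) and 0.14 (young) in non-classical over neutrophil-like cells. In the first of these, 3 of 9 factors compared were higher, where 45.3% of all genes were, and 4 were lower (Cebpd, Cebpe, Spi1 and Klf6), where 19.6% were. In old non-classical cells 3 of 9 were higher, where 40.8% of all genes were, and 2 lower, where 20.1% were. In young non-classical cells 4 of 9 were higher, Cebpb among them, where 43.0% of all genes were, and 3 lower, Klf6 among them, where 20.8% were. For the higher factors these counts are near or below the share of all genes. Monocyte-like cells hold more UMIs each, with a median of 18720 in old classical cells against 7494 in old neutrophil-like cells. In UMIs per cell, old classical cells held more Spi1 (14.8 and 8.72) and Klf6 (4.15 and 2.10) than old neutrophil-like cells, the opposite of the CPM order.

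Old over young, non-classical monocyte-like cells differed in 1 of 9 factors compared, Cebpe, where 9.35% of all genes were called in either direction. Cebpe stood at 29.3 (25 to 34.1) CPM in old and 4.99 (3.23 to 7.37) CPM in young cells, 5.86-fold (3.84 to 9.32). The old cells also carried Ltf, Camp and Ngp at 0.736% of UMIs, against 0.00847% in young cells, and S100a8 and S100a9 at 8.45%, against 1.46%. In the 245 old cells with under 0.05% of UMIs from Ltf, Camp and Ngp, Cebpe stood at 2.81 CPM (7 UMIs), beside 5.05 CPM in 458 such young cells, with intervals that overlapped (1.13 to 5.80 in old and 3.27 to 7.46 in young cells). Cebpb differed by less than its counting interval, with a ratio of 0.980 (0.952 to 1.01), as did Runx1 at 1.04 (0.977 to 1.10) and Klf6 at 0.963 (0.899 to 1.03). In the cells under 0.05%, Cebpb stood at 1910 (1856 to 1965) CPM in the old and 1689 (1653 to 1726) CPM in the young library. Irf8 was at 77.5 CPM in old and 127 CPM in young cells, a plain ratio of 0.612 (0.541 to 0.692) and a relative log2 ratio of -0.53. Cebpa, Cebpd, Spi1 and Klf2 were not called either, and Gfi1 was too low to compare.

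**Figure D5:**
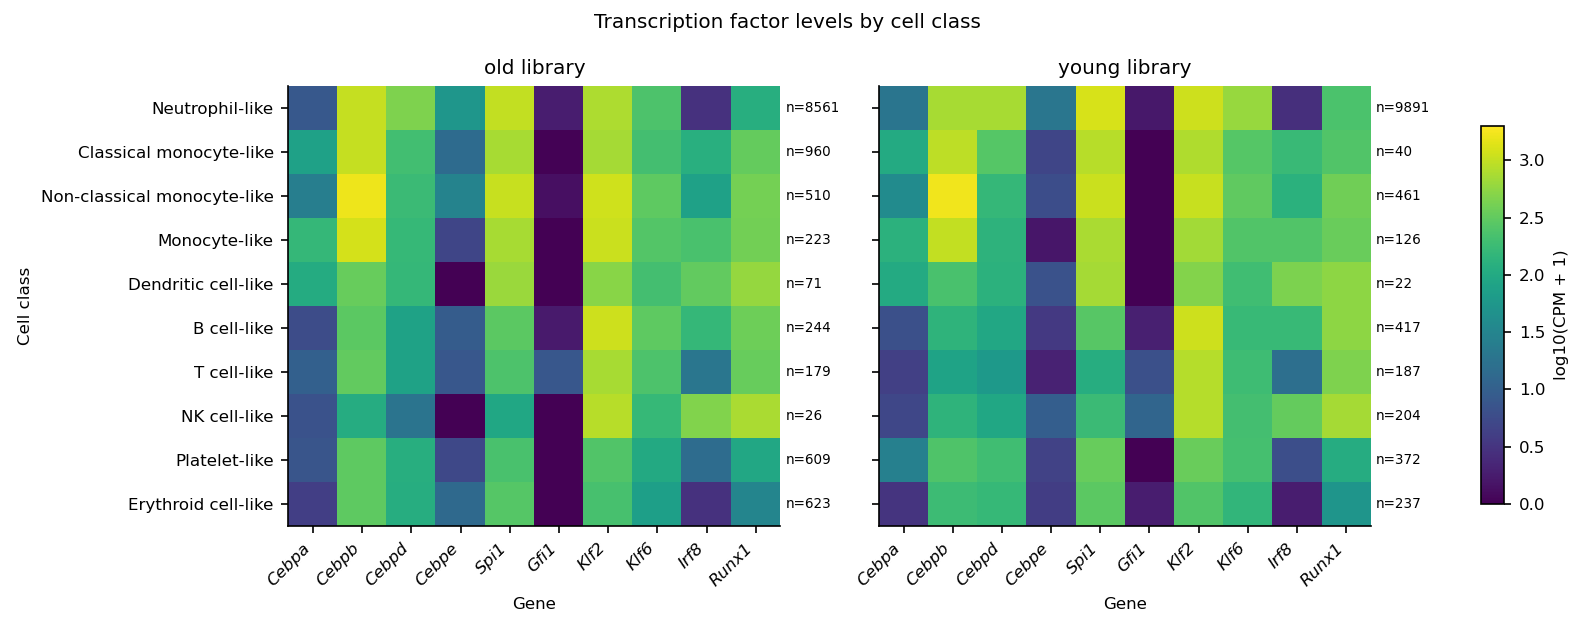
Level of the 10 genes (x axis) in 10 cell classes (y axis), old library left and young library right, as log10 of CPM with 1 added (colour), with cell numbers beside each row. Irf8 was near 0 in neutrophil-like cells and reached 469 CPM in the 26 old and 328 CPM in the 204 young NK cell-like cells. Cebpa was highest in the class named only monocyte-like, in the old library (155 CPM) and in the young one (130 CPM).

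Across the named classes with 50 cells or more, each factor had its own order. Cebpd and Cebpe were highest in neutrophil-like cells in both libraries. Spi1 was highest in non-classical monocyte-like cells of the old library (1040 CPM) with neutrophil-like cells next (993 CPM), and the other way round in the young one (1099 and 1242 CPM). Cebpb was highest in non-classical monocyte-like cells of both. Irf8 was highest in dendritic cell-like cells of the old library (325 CPM, 71 cells) and in NK cell-like cells of the young one (328 CPM). Runx1 was highest in old dendritic cell-like cells (607 CPM) and young NK cell-like cells (712 CPM). Klf2 intervals overlapped between old non-classical monocyte-like and B cell-like cells (1146 and 1112 CPM) and between young neutrophil-like and B cell-like cells (1128 and 1112 CPM). Erythroid cell-like cells, which should lack both genes, held Cebpb at 299 CPM in the old and 183 CPM in the young library, and Spi1 at 269 and 294 CPM.

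Other genes of the same families were counted in the same way in high over low-granule cells, where the median over all genes was 0.11 log2 in each library. Of all genes 24.5% were higher and 15.5% lower in the old library, and 29.4% and 23.7% in the young one. Of 15 further KLF genes 5 were compared, with a median of -0.19 (old) and -0.62 (young): Klf5 was higher in both libraries (relative log2 1.37 in old and 2.84 in young cells), and Klf3 and Klf10 were lower in both. Of 12 ETS genes 9 were compared in the old and 10 in the young library (median -0.07 and 0.18), and the ratio was largest for Erg, a factor of stem cells and progenitors, at 42.1 CPM in high- and 1.45 CPM in low-granule cells of the old library and 73.4 and 2.72 CPM in the young one. Ets1 was higher and Ets2 lower in both libraries. Of 7 partners and regulators of C/EBP proteins 5 were compared (median -0.05 and -0.21): Ddit3 was lower in both libraries, Cebpg in the young one, and 0 were higher.

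The same shares of all genes apply to the next lists: 24.5% (old) and 29.4% (young) higher, 15.5% and 23.7% lower. Of 8 IRF genes, 0 were higher, and 3 of 5 compared in the old and 4 of 6 in the young library were lower, Irf1, Irf2 and Irf5 in both (median -0.59 and -0.79). Of 8 RUNX and GFI partners 5 were compared (median 0.30 and 0.75): Rcor1 and Hdac1 were higher and Runx2 was lower in both. Of 10 progenitor factors 2 were compared, and Lmo2 was higher in both libraries, at 23.2 CPM in high- and 11.5 CPM in low-granule cells of the old one. Of 11 monocyte and dendritic cell factors 3 were compared in the old and 5 in the young library, and Zeb2 was lower in both. Of 18 textbook targets of the 10 factors 13 were compared: 7 were higher and 4 lower in the old library (median 0.72), and 8 higher and 4 lower in the young one (median 1.31). Lcn2, which encodes the granule protein lipocalin, stood at 15950 CPM in high- and 4646 CPM in low-granule cells of the old library, and Csf3r, the receptor for granulocyte colony-stimulating factor, at 484 and 2453 CPM. Of the specific granule genes outside the bands, 10 of 11 compared were higher in each library, among them Chil3 at 2359 and 119 CPM in old cells and 3022 and 14.5 CPM in young cells. Cells were banded on 3 genes of the same granule, so that count is no independent measure. Lcn2, Mmp8 and Cybb are in that list and among the targets, so the target count is not independent either.

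In old over young neutrophil-like cells the median over all genes was 0.06 log2, and 22.5% of all genes were higher and 12.7% lower. Of IRF genes, 0 of 6 compared were called (median -0.40), and of ETS genes 1 of 9, Ets1, which was higher (38.0 CPM in old and 21.8 CPM in young cells). Klf5 and Klf7 were higher and Klf10 lower among 5 KLF genes compared (median -0.04). Ddit3 and Runx2 were the single lower genes among 5 C/EBP partners and 5 RUNX and GFI partners, with medians of -0.18 and 0.02, and 0 of 2 progenitor factors were called (median 0.11). Of the 5 monocyte and dendritic cell factors compared (median -1.21), Tcf4 was higher and 3 were lower: Egr1 (5.88 CPM in old and 75.3 CPM in young cells), Zeb2 (158 and 694 CPM) and Nr4a1 (7.38 and 30.1 CPM). Of 13 targets 6 were higher and 3 lower (median 0.49), with Ly6g, the surface protein of the sort, at 1022 CPM in old and 102 CPM in young cells. All 11 specific granule genes compared were higher (median 3.36).

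In monocyte-like over neutrophil-like cells, 7 of 7 monocyte and dendritic cell factors compared were higher in both old comparisons, where 45.3% (classical) and 40.8% (non-classical) of all genes were, and 7 of 9 in the young one, where 43.0% were. Klf4, a factor of monocyte development, stood at 263 CPM in old and 371 CPM in young non-classical cells, against 1.48 CPM in old and 4.39 CPM in young neutrophil-like cells. Of the targets, 8 of 14 compared were lower and 5 higher in old classical cells, and 8 of 13 were lower and 3 higher in non-classical cells of each library, where 19.6% to 20.8% of all genes were lower. Ly6g was lower in all 3 comparisons. Among the targets, Csf3r, Csf1r, Mmp8, Mmp9, Mpo, Elane, Prtn3 and Ctsg were also in the marker lists used to name the classes. Among the monocyte and dendritic cell factors, Nr4a1 was. The counts of both lists are therefore no independent measure.

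The genes most like each factor were found over 8 groups, the 5 old and 3 young bands with 50 cells or more, by Pearson correlation of log2 CPM with 1 added among 6251 genes. The groups share libraries and their depth rises with the bands, so these values describe patterns only. Nearest to Cebpe were Psme3 (r = 0.988), Tecr and Trp53inp2. Nearest to Cebpb were Slc2a1 (0.991), Scand1 and Eif4ebp1, and nearest to Cebpd were Klf10 (0.9985), Scarb2 and Jun. Spi1 was followed by Malat1 (0.998), Csf2rb and Dhx38, and Klf2 by Ets2 (0.996), Dhx38 and Dennd4a. Aftph (0.999) and Mbp were among the genes nearest to Klf6, and Runx1 was followed by Supt20 (0.996), Dock5 and Ptpre. For the low factors the nearest were Ubp1 for Cebpa (0.994), Mrps17 for Gfi1 (0.949) and Egln2 for Irf8 (0.985), on few UMIs. Among the factors themselves, Spi1 and Klf2 were the closest pair (r = 0.995) and Cebpe and Spi1 the most opposed (r = -0.975).

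Coordinates are those of the GENCODE annotation of GRCm38, with all 10 genes protein-coding. Cebpe lies at chr14:54710360-54712174 on the minus strand, Cebpb at chr2:167688915-167690418 and Cebpa at chr7:35119293-35121928 on the plus strand, and Cebpd at chr16:15887286-15891031 on the plus strand. Spi1 lies at chr2:91082390-91115756 and Irf8 at chr8:120736358-120756694 on the plus strand, Runx1 at chr16:92601466-92826149 and Gfi1 at chr5:107716657-107726036 on the minus strand. Klf2 lies at chr8:72319033-72321656 and Klf6 at chr13:5861482-5870394, both on the plus strand. Cebpa, Cebpb, Cebpd, Gfi1 and Runx1 overlap a gene on the other strand, Irf8 overlaps Gm20388 on the same strand, and whether the counting used strand is not given in the sources used here.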

How the data were processed

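The deposited tables hold 1 UMI count for each gene in each barcode, and the authors did not normalize these counts. Per the file headers they were made with Cell Ranger 7.2.0, and the submitters' processing notes give Cell Ranger and build mm10. The annotation release, the cell calling and the link between these barcodes and Rhapsody labels are not given in the sources used here. The shallowest barcode of each library had 500 UMIs. A cell was kept with 200 genes or more and no more than 20% mitochondrial UMIs, which took out 817 old and 678 young barcodes. Both libraries were clustered in 1 run, with no integration and without the 10 factors, in scanpy 1.11.5 (Python 3.11.15, leidenalg 0.10.2), from 2000 variable genes per library, 30 components, 15 neighbours and Leiden resolution 0.6. Clusters were called "X-like" from 16 marker lists if 3 or more markers reached 20 CPM and 25% of their highest level in any cluster, in 20 cells or more. A cluster also stayed unnamed if its leading genes held more markers of another type than of its own, or had a median under 100 CPM. This left out cluster 4 (1011 old, 876 young cells) and cluster 11 (408 and 88), with 10 and 9 of 10 neutrophil markers, and cluster 5.4 (61 old cells). Those limits and a second split of the monocyte cluster (resolution 0.3) were set with the data in view. In all, 1511 old and 964 young cells stayed unnamed. No doublet caller was run, and 347 old and 205 young neutrophil-like cells with 0.5% or more of UMIs from markers of other lineages were dropped in an alternative.

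For each library and class, UMIs were added up and scaled to the class total (CPM), with exact Poisson 95% intervals (scipy 1.17.1). A count of 0 is read with a limit of 3 UMIs. A ratio is the log2 of the 2 CPM values with 1 CPM added to each, less the ratio of the median gene among genes at 50 CPM. Genes were compared if their mean over both sides reached 10 CPM and their sum 20 UMIs, and called from 1.5-fold. Shares of cells were taken after thinning to 1000 UMIs with a fixed seed, with Clopper-Pearson intervals. The ratios were tested on simulated data. The text gives all 10 factors and, from 9 gene lists, some of the 4 genes with the largest ratio in each. The factors and the lists were chosen with earlier results of these data known. Promoters are RefSeq windows, and the motifs were chosen after the values were seen.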

Additional observations from a re-analysis of the deposited data

Results flagged for a closer look

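High levels appeared in clusters of the old library that stayed unnamed and enter no comparison. In a cluster of 14 old cells led by Top2a and Fcnb, genes of dividing cells and of neutrophil precursors, Cebpe stood at 703 CPM (631 to 781, 348 UMIs), above the interval of every named class and band of either library. In a cluster of 17 old cells led by Prss34 and Mcpt8, which are basophil proteases, Cebpa stood at 327 CPM (234 to 446, 40 UMIs) and Runx1 at 1230 CPM (1040 to 1440, 150 UMIs). The young library had 0 cells in either cluster, so no young value stands beside these.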

How the results depend on the processing

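No paired analysis was possible because each age has 1 library and no result comes from a test. Age, library and handling cannot be told apart, and young values above 1% granule share rest on 67 cells. Counts of factors called higher or lower kept within 1.5 times under the other alternatives. With plain CPM ratios, 1 factor was higher and 4 were lower in old over young neutrophil-like cells, where 6.96% and 52.1% of all genes were. In old high over low-granule cells 5 were lower, where 36.4% of all genes were. In old classical monocyte-like over neutrophil-like cells 2 were lower, where 12.6% of all genes were. With no filter on low values, 4 were higher in old over young cells, and 2 in high over low-granule cells of the old and of the young library. In old over young cells that setting compared 22224 genes, the floor of 50 CPM 2567 and the main setting 5745. The share of all genes called is not given here for this setting and those named after it, so their counts cannot be set against all genes. With a floor of 50 CPM, 1 was higher in old over young cells, and 1 was higher and 1 lower in old non-classical monocyte-like cells. With a 2-fold threshold, 0 were lower in old over young cells, 1 in old and 2 in young high over low-granule cells, 2 were lower in old classical and 2 higher in young non-classical monocyte-like cells. A total without abundant genes, or 0.1 CPM added, gave 2 lower in old over young cells, and the top over the bottom 20% of young cells by granule share gave 0 lower. Of the 9891 young neutrophil-like cells 9624 had a granule share under 0.05%, and the median was 0. That split therefore does not set high- against low-granule cells.

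Mean UMIs per cell, added after seeing the data, gave 0 lower in old over young cells, 2 higher and 0 lower in high over low-granule cells of either library, 7 higher and 1 lower in old classical and 6 higher and 1 lower in old non-classical monocyte-like cells. The share of all genes called on this scale is not given here. Mean UMIs per cell turned the sign of 6 ratios that had been called lower. These became 0.201 for Klf6 in old and 0.0113 for Cebpd in young high over low-granule cells. In old classical monocyte-like cells they became 0.0286 for Cebpd, 0.768 for Spi1 and 0.98 for Klf6, and in young non-classical ones 0.293 for Klf6. The sign of other ratios, within 1.5-fold and not called, turned too. The causes were not tested.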
